A study of Mus musculus with 11 samples.

Results

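The coagulation factors made by hepatocytes were examined as a group of 10 named genes: the procoagulant zymogens F2, F7, F9, F10, F11 and F12, the cofactor F5, the anticoagulants Proc and Pros1, and the fibrinolytic zymogen Plg. They were 10 of the 54232 genes in the count tables, and all 10 had counts in every library and passed the filter on low counts that left 13303 genes for testing. RNA came from hepatocytes isolated from male mice of the C57BL/6 strain that carried floxed Xbp1 alleles. The Xbp1 LKO mice also carried Cre under the albumin promoter, which deletes Xbp1 in hepatocytes, and the Xbp1 fl/fl controls carried the floxed alleles without this deletion. Each genotype was kept on standard chow or on the HFS diet (high in fat and sugar, a Western diet with fructose and glucose in the drinking water) for at most 6 weeks. The mice were adults of unstated age. On chow there were 3 control and 2 Xbp1 LKO libraries, and on the HFS diet 3 of each genotype. The study describes a further chow-fed Xbp1 LKO library, which was not analysed here. A chow library held 1 mouse and an HFS library a pool of 2 mice, so the spread between HFS libraries is a spread between pools, and the genotype effect on each diet is measured with different averaging over animals.

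Blood clotting is a cascade of plasma proteases that circulate as inactive zymogens. The extrinsic arm starts when factor VII meets tissue factor, the contact arm runs through factors XII and XI to factor IX, and both converge on factor X, which with its cofactor factor V cuts prothrombin to thrombin. Protein C, with its cofactor protein S, shuts the cascade down by cleaving activated factors V and VIII, and plasmin, made from plasminogen, dissolves the fibrin clot. Hepatocytes make nearly all of these proteins and send them through the endoplasmic reticulum, where prothrombin, factors VII, IX and X, protein C and protein S receive the vitamin K-dependent carboxylation that their membrane binding needs. XBP1 is a transcription factor of the unfolded protein response, activated by the endoplasmic reticulum sensor IRE1, and it controls many genes of the secretory pathway.

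RefSeq promoter sequences on GRCm38.p6 (from 250 bases before to 50 bases after the transcription start) were found for 8 of the 10 genes, the others being Plg and Proc. They were searched on both strands for short motifs of factors known to act on secretory or liver genes. The core of the unfolded protein response element, GACGTG, was in 0 of 8 and in 6.38% of all 32851 promoters of the same length. The parts of the endoplasmic reticulum stress element were searched separately. CCAAT was in 3 of 8 (37.5%) against 37.4% of all promoters, and CCACG in 0 of 8 against 32.8%. The C/EBP motif TTGCNNAA was in 2 of 8 (25%), F9 and F11, against 10.8%, the HNF4A motif CAAAGTCCA in 0 of 8 against 0.475%, and the HNF1 motif GTTAATNAT in 0 of 8 against 0.801%. With shares this small, 0 of 8 does not show that HNF4A or HNF1 sites are absent. Variant sites were not searched. Each of the 5 promoters with a match held 1, so no matches overlapped, and a match is a description of letters only. The 250 bases upstream of 4 genes are printed because of the values that follow. Of the 8 genes, F2 and F7 had the largest falls in Xbp1 LKO hepatocytes on each diet, and F9 and Pros1 had the estimates nearest 0 on the HFS diet. They are F2 at chr2:91636458-91636707 (minus strand), F7 at chr8:13025784-13026033 (plus strand), F9 at chrX:59999214-59999463 (plus strand) and Pros1 at chr16:62854057-62854306 (plus strand). Capitals mark CCAAT in F7 (first base at -73 from the start) and the C/EBP motif in F9 (first base at -24).
F2 promoter: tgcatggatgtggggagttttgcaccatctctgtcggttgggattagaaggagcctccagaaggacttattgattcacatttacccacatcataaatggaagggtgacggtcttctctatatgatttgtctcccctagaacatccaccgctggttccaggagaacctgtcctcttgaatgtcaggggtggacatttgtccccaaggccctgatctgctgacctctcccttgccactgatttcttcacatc
F7 promoter: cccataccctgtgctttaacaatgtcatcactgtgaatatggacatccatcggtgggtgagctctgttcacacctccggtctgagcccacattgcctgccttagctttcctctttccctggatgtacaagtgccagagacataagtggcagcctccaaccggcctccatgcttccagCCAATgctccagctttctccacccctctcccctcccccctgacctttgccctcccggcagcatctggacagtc
F9 promoter: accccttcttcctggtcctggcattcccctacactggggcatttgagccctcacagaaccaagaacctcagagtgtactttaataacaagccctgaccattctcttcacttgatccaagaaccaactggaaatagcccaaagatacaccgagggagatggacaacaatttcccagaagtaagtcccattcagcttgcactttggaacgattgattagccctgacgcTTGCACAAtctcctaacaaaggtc
Pros1 promoter: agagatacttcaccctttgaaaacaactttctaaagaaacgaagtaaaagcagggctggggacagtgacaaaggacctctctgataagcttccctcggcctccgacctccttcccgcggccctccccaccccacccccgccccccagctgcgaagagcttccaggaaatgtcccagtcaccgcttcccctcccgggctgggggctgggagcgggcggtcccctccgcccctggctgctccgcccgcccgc
The promoters of F2, F5 and Pros1 held none of the 6 motifs. That of Pros1 was the richest in G and C of the 8 (66.7%, against 42.3% to 57.7% in the others and a median of 52.7% over all promoters). The CCAAT of F12 had its first base at -53, that of F10 lay just after the start, with its first base at position 13, and the C/EBP match of F11 was on its minus strand with the first base at -17.

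Total counts were 19191032 to 23888401 per library. Levels are given as CPM, read counts scaled to a common library size, after scaling by edgeR's TMM factors, which were 0.878 to 0.938 in the Xbp1 fl/fl libraries and 1.05 to 1.19 in the Xbp1 LKO libraries. Xbp1 itself, counted over the whole gene rather than its deleted exon, was at 194.4, 200.3 and 221.2 CPM in chow-fed Xbp1 fl/fl and 95.7 and 128.2 CPM in chow-fed Xbp1 LKO libraries (log2 fold change -0.87, edgeR adjusted p = 0.0158). Under HFS feeding it was at 242.3 to 301.2 CPM and 97.3 to 134.7 CPM (log2 fold change -1.26, adjusted p = 0.00191), both by edgeR. As a check of the labelled cell type, 9 of 10 hepatocyte markers were matched by symbol and summed to 42940 CPM or more in every library, against at most 130.1 CPM for 10 endothelial, 89.7 CPM for 10 macrophage, 61.2 CPM for 10 stellate, 16.3 CPM for 8 cholangiocyte and 4.18 CPM for 6 platelet and megakaryocyte markers. Alb, the transcript of albumin, took 5.88% to 10.9% of the counts in Xbp1 fl/fl libraries and 1.67% to 5.40% in Xbp1 LKO libraries. Counts scaled to a library measure neither the number of hepatocytes nor the RNA per hepatocyte, and their part in the lower Alb share was not tested.

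The 10 transcripts were abundant. As CPM per kilobase of exons, averaged over the 11 libraries, Plg was highest at 899.5 and ranked 56 among 13299 genes with a length, followed by F2 (401.9), F12 (273.5), Proc (191.8), F10 (169.2), F5 (140.6), F9 (93.0), F7 (51.9), F11 (49.6) and Pros1 (20.1, rank 1752). Plg was above F2, F2 above F12 and F12 above Proc in 11 of 11 libraries when compared within a library. F5 above F9, F9 above F7 and F11 above Pros1 also held in 11 of 11. The other 3 pairs of neighbours were not in the same order in every library. Proc was above F10 in 6 of 6 Xbp1 fl/fl libraries and below it in 5 of 5 Xbp1 LKO libraries, and F7 was above F11 in 5 of 6 Xbp1 fl/fl libraries and in 0 of 5 Xbp1 LKO libraries. F10 was above F5 in 6 of 6 and 2 of 5. These orders use the union of annotated exons as length. With the longest transcript in its place, Proc and F12 change places in the averages. Proc then stays above F10 in the Xbp1 fl/fl libraries, but its order with F10 is mixed in the Xbp1 LKO libraries. Proc and F10 were at 186.8 and 134.7 CPM per kilobase in the third HFS-fed Xbp1 LKO library. In the second they were at 112.7 and 130.1. F10 also moves above F5 in the second chow-fed Xbp1 LKO library (128.5 against 121.6). Over all 11 libraries only the ranges of Plg and F2, and of F11 and Pros1, did not overlap among neighbours.

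Genotype was the comparison in which the coagulation factors differed. On chow, 4 of the 10 (F2, F7, F12 and Proc) were lower in Xbp1 LKO hepatocytes and 0 were higher, whereas 3% of all genes tested were called lower and 1.65% higher. On the HFS diet, 7 of the 10 were lower (F2, F7, F10, F11, F12, Proc and Plg) and 0 were higher, against 2.26% and 1.93% of all genes. All 4 genes called on chow were also called on the HFS diet, and 3 genes (F5, F9 and Pros1) were called on neither. The 10 genes were chosen with earlier results of these data known, and they rank high in level (56 to 1752 of 13299). The shares over all genes are therefore given as a description and not as a test of the group. The median log2 fold change of the 10 was -0.56 on chow and -0.68 on the HFS diet, against 0.00 and 0.01 over all genes tested. The Xbp1 LKO libraries were all below the controls of their diet for 8 of the 10 on chow (15.9% of all genes) and for 8 of the 10 on the HFS diet (12.5% of all genes). The 10 transcripts together made up 9635 ± 1528 CPM (SD, n = 3) in chow-fed Xbp1 fl/fl and 6017 and 6707 CPM in chow-fed Xbp1 LKO libraries. HFS-fed hepatocytes had 10160 ± 488 CPM (SD, n = 3) in Xbp1 fl/fl and 6204 ± 451 CPM (SD, n = 3) in Xbp1 LKO libraries. As a share of all counts, without TMM scaling, they took 0.738% to 0.975% in Xbp1 fl/fl libraries and 0.647% to 0.729% in Xbp1 LKO libraries. All calls here and below used the quasi-likelihood test of edgeR with Benjamini-Hochberg adjustment over 13303 genes and a threshold of 0.05. The labels do not say how the mice relate to each other, so the p-values measure the spread between these libraries.

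Some other features of the libraries differed with genotype beside this result, whereas others overlapped. The 8 matched hepatocyte markers other than Alb summed to 49140 to 53900 CPM in Xbp1 fl/fl and 28910 to 42370 CPM in Xbp1 LKO libraries, over both diets. On chow the summed endothelial markers ran from 40.6 to 95.6 CPM in Xbp1 fl/fl and were 25.3 and 31.8 CPM in Xbp1 LKO libraries, and the summed stellate markers 13.1 to 41.0 and 8.96 and 9.44 CPM. The macrophage markers overlapped on chow, at 17.9 to 79.5 against 21.2 and 30.8 CPM. In HFS-fed mice the summed macrophage, endothelial and stellate markers overlapped between Xbp1 fl/fl and Xbp1 LKO libraries, the macrophage markers only narrowly. The macrophage markers summed to 34.8 to 50.9 and 50.4 to 89.7 CPM. The endothelial markers had 79.3 to 130.1 and 63.8 to 99.3 CPM, and the stellate markers 22.9 to 40.3 and 29.1 to 61.2 CPM. The genotype estimates on the HFS diet were positive for 10 of 10 macrophage, 6 of 8 tested stellate and 0 of 10 endothelial markers (6836 of all 13303 genes). None of these markers passed the threshold by edgeR. The part of these features in the lower coagulation factor levels was not tested.

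**Figure D1:**
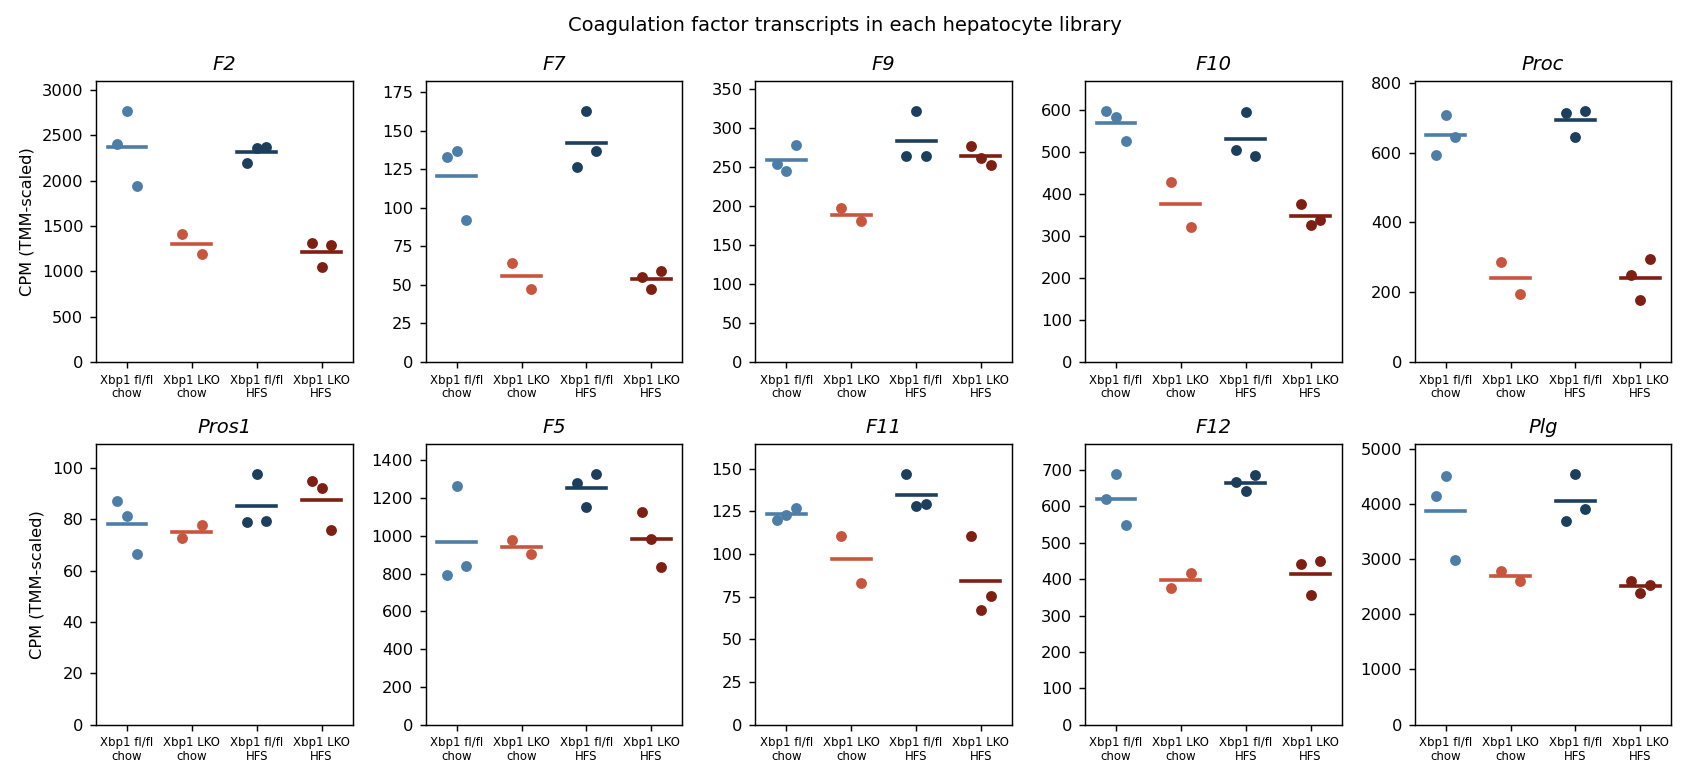
Expression of the 10 coagulation factor genes in each library (y axes: CPM after TMM scaling, from 0; x axes: the 4 groups; points: libraries; lines: group means). On each diet all Xbp1 LKO libraries lie below all controls in F2, F7, F10, F11, F12, Proc and Plg. F9 is also apart on chow and F5 on the HFS diet, whereas Pros1 overlaps on both. Of all genes tested, 15.9% on chow and 12.5% on the HFS diet have the Xbp1 LKO libraries so placed.

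Among the vitamin K-dependent procoagulants, F2, the gene of prothrombin (ENSMUSG00000027249, chr2:91625320-91636414, minus strand, GRCm38), was at 2404, 2769 and 1945 CPM in chow-fed Xbp1 fl/fl and 1413 and 1194 CPM in chow-fed Xbp1 LKO libraries. Under HFS feeding it was at 2198, 2363 and 2377 CPM in Xbp1 fl/fl and 1310, 1048 and 1292 CPM in Xbp1 LKO libraries. The highest Xbp1 LKO library was thus well below the lowest control on either diet. F2 fell by 45.1% on chow (log2 fold change -0.86, SE 0.19, adjusted p = 0.0236) and fell by 47.4% on the HFS diet (log2 fold change -0.93, SE 0.17, adjusted p = 0.00993).

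F7, the gene of factor VII, whose activation by tissue factor starts clotting (ENSMUSG00000031443, chr8:13026034-13035809, plus strand), was at 133.4, 136.7 and 92.3 CPM in chow-fed Xbp1 fl/fl and 64.5 and 47.1 CPM in chow-fed Xbp1 LKO libraries. The HFS libraries had 126.9, 162.9 and 136.8 CPM in Xbp1 fl/fl and 55.1, 47.4 and 59.2 CPM in Xbp1 LKO hepatocytes. The Xbp1 LKO libraries lay below the controls on each diet. F7 fell by 53.8% on chow (adjusted p = 0.00998) and fell by 62.1% on the HFS diet (adjusted p = 0.00205, log2 fold change -1.40, SE 0.18).

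F10, the gene of factor X, at which the arms of the cascade meet (ENSMUSG00000031444, chr8:13037308-13056676, plus strand), starts 1498 bp downstream of F7. It was at 596.6, 582.4 and 525.9 CPM in chow-fed Xbp1 fl/fl, 427.9 and 321.7 CPM in chow-fed Xbp1 LKO, 504.9, 593.8 and 491 CPM in HFS-fed Xbp1 fl/fl, and 375.9, 325.6 and 337.2 CPM in HFS-fed Xbp1 LKO libraries. The genotypes did not overlap on either diet. F10 passed the threshold on the HFS diet (log2 fold change -0.61, SE 0.14, adjusted p = 0.0334) and not on chow, where the estimate was nearly the same (-0.60, SE 0.16, adjusted p = 0.056). The difference between these estimates was -0.01 (SE 0.21, adjusted p = 0.996 for the interaction).

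F9, the gene of factor IX, which is deficient in haemophilia B (ENSMUSG00000031138, chrX:59999464-60030759, plus strand), had a different pattern. It was at 254.2, 245.1 and 278 CPM in chow-fed Xbp1 fl/fl and 196.9 and 180.3 CPM in chow-fed Xbp1 LKO libraries, with no overlap. In HFS-fed mice the groups overlapped, with 264.7, 321.7 and 264.7 CPM in Xbp1 fl/fl and 277.4, 261.7 and 253.1 CPM in Xbp1 LKO libraries. The log2 fold change was -0.46 on chow (SE 0.13, adjusted p = 0.0721) and -0.10 on the HFS diet (SE 0.12, adjusted p = 0.731, with a 95% interval from -0.36 to 0.15). The interaction of genotype and diet for F9 was 0.35 (SE 0.17, unadjusted p = 0.0656, adjusted p = 0.836).

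Of the anticoagulant pair, Proc, the gene of protein C (ENSMUSG00000024386, chr18:32123126-32139570, minus strand), showed the largest fall of the 10 on each diet. It was at 594.5, 708.3 and 645.3 CPM in chow-fed Xbp1 fl/fl and 285.6 and 194.9 CPM in chow-fed Xbp1 LKO libraries. HFS libraries had 713, 645.9 and 719 CPM in Xbp1 fl/fl and 250, 177.5 and 294.2 CPM in Xbp1 LKO hepatocytes. The highest of the 5 Xbp1 LKO libraries (294.2 CPM) was far below the lowest of the 6 controls (594.5 CPM). Proc fell by 63.0% on chow (log2 fold change -1.43, SE 0.22, adjusted p = 0.00521) and fell by 65.3% on the HFS diet (log2 fold change -1.53, SE 0.20, adjusted p = 0.00208).

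Pros1, the gene of protein S, the cofactor of activated protein C (ENSMUSG00000022912, chr16:62854307-62929346, plus strand), was at 87.3, 81.1 and 66.5 CPM in chow-fed Xbp1 fl/fl, 72.7 and 77.6 CPM in chow-fed Xbp1 LKO, 78.8, 97.7 and 79.2 CPM in HFS-fed Xbp1 fl/fl, and 94.8, 92.0 and 76.0 CPM in HFS-fed Xbp1 LKO libraries. The groups overlapped on both diets. The log2 fold change was -0.06 on chow (95% interval -0.39 to 0.27, adjusted p = 0.879) and 0.04 on the HFS diet (95% interval -0.25 to 0.33, adjusted p = 0.929), so that a fall as large as that of Proc lies outside both intervals. With library totals in place of TMM the Pros1 estimates were 0.27 and 0.30.

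Ratios of counts within a library do not depend on the scaling between libraries, and were taken after the values above had been seen. The Proc/Pros1 ratio was 6.61 to 9.7 in the 6 Xbp1 fl/fl libraries and 1.93 to 3.93 in the 5 Xbp1 LKO libraries. The ratio of the neighbours F7/F10 was 0.224, 0.235 and 0.175 in chow-fed Xbp1 fl/fl against 0.151 and 0.146 in chow-fed Xbp1 LKO, and 0.251, 0.274 and 0.279 against 0.146, 0.146 and 0.175 on the HFS diet. The F2/F5 ratio was 2.19 to 3.03 in chow-fed Xbp1 fl/fl against 1.45 and 1.32 in chow-fed Xbp1 LKO, and 1.71 to 2.05 against 1.07 to 1.54 on the HFS diet. These 3 ratios were lower in every Xbp1 LKO library than in every control of the same diet. In each of the 3 pairs the first gene had the lower estimate on both diets. The ratios therefore restate the values above and are no separate evidence. The fourth ratio taken, F11 to Klkb1, the gene of plasma prekallikrein, overlapped on both diets (0.517 to 0.815 against 0.683 and 0.906 on chow, and 0.597 to 0.654 against 0.412 to 0.694 on the HFS diet).

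**Figure D2:**
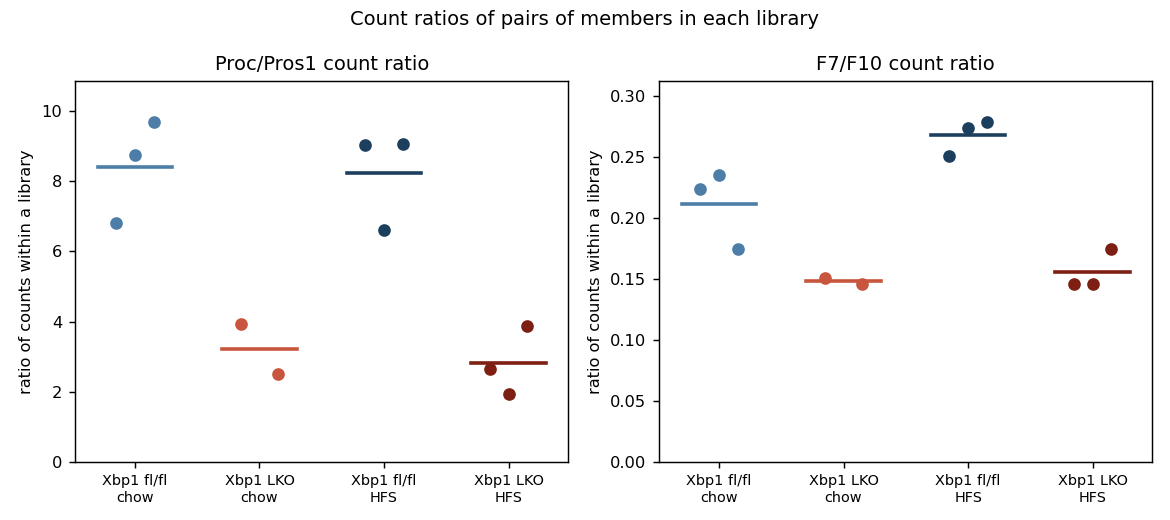
Count ratios of Proc to Pros1 and of F7 to F10 in each library (y axes: ratio of counts, from 0; x axes: the 4 groups; points: libraries; lines: group means). The Proc/Pros1 ratio is at most 3.93 in Xbp1 LKO and at least 6.61 in Xbp1 fl/fl libraries, and the F7/F10 ratios of the genotypes do not overlap on either diet.

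F5, the gene of factor V, the cofactor that speeds the cutting of prothrombin (ENSMUSG00000026579, chr1:164151838-164220277, plus strand), was at 792.1, 1264 and 841.8 CPM in chow-fed Xbp1 fl/fl and 977.1 and 903.3 CPM in chow-fed Xbp1 LKO libraries, which lay inside the range of the controls. In HFS-fed mice all 3 Xbp1 LKO libraries (1126, 981.9 and 836.2 CPM) were below the controls (1283, 1155 and 1329 CPM). F5 did not pass the threshold on chow (log2 fold change -0.04, 95% interval -0.49 to 0.42, adjusted p = 0.947) or on the HFS diet (-0.36, 95% interval -0.76 to 0.05, adjusted p = 0.37). A noncoding gene on the opposite strand, Gm16548, shares 262 bp of exons with F5 and had 1602 counts over all libraries, against at least 14359 for F5 in each.

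F12 encodes factor XII, the zymogen that starts the contact arm (ENSMUSG00000021492, chr13:55417958-55426793, minus strand). It was at 621.6, 689.8 and 549.3 CPM in chow-fed Xbp1 fl/fl, 376.4 and 418.2 CPM in chow-fed Xbp1 LKO, 666.1, 642.4 and 686.1 CPM in HFS-fed Xbp1 fl/fl, and 441.2, 355.9 and 448.8 CPM in HFS-fed Xbp1 LKO libraries. The genotypes were well apart on both diets. F12 fell by 35.9% on chow (log2 fold change -0.64, SE 0.15, adjusted p = 0.0356) and fell by 37.5% on the HFS diet (log2 fold change -0.68, SE 0.14, adjusted p = 0.0182).

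F11, the gene of factor XI, which factor XII and thrombin activate (ENSMUSG00000031645, chr8:45241174-45262031, minus strand), was at 120, 122.7 and 127.2 CPM in chow-fed Xbp1 fl/fl and 110.7 and 83.2 CPM in chow-fed Xbp1 LKO libraries. With the HFS diet the controls had 147, 128.1 and 129.1 CPM and the Xbp1 LKO libraries 110.7, 67.3 and 75.1 CPM. The Xbp1 LKO libraries were lower on both diets but spread widely. F11 passed the threshold on the HFS diet by a narrow margin (log2 fold change -0.68, SE 0.17, adjusted p = 0.0493) and did not pass on chow (-0.35, SE 0.19, adjusted p = 0.364).

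Plg, the gene of plasminogen (ENSMUSG00000059481, chr17:12378608-12419385, plus strand), was at 4148, 4503 and 2981 CPM in chow-fed Xbp1 fl/fl and 2782 and 2597 CPM in chow-fed Xbp1 LKO libraries. In HFS-fed mice it was at 3703, 4551 and 3911 CPM in Xbp1 fl/fl and 2612, 2394 and 2535 CPM in Xbp1 LKO libraries. The third chow-fed control was close to the Xbp1 LKO libraries, and the HFS groups were well apart. Plg fell by 38.0% on the HFS diet (log2 fold change -0.69, SE 0.17, adjusted p = 0.0474), and its estimate on chow was -0.53 (SE 0.20, adjusted p = 0.158). It shares 420 bp of exons with Slc22a3 on the opposite strand, which had 4169 counts over all libraries against at least 59446 for Plg in each.

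By class, 3 of 6 vitamin K-dependent genes and 1 of the 4 others were called lower on chow, and 4 of 6 and 3 of 4 on the HFS diet. The median log2 fold change on the HFS diet was -0.77 in the vitamin K-dependent genes and -0.68 in the others. The vitamin K-dependent genes held both the largest falls (Proc and F7) and the estimates nearest 0 on the HFS diet (Pros1 and F9).

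**Figure D3:**
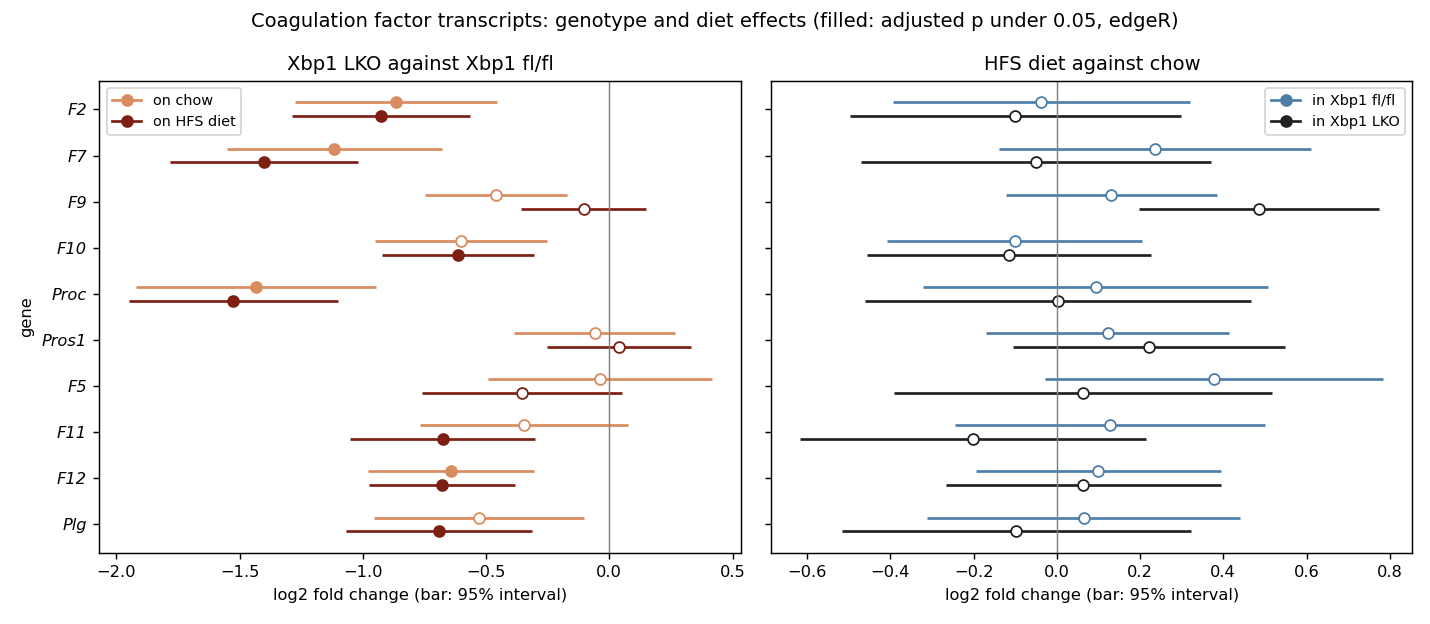
Log2 fold changes of the 10 genes (x axes) with 95% intervals (bars) for Xbp1 LKO against Xbp1 fl/fl on each diet (left) and the HFS diet against chow in each genotype (right). Filled points passed an adjusted p of 0.05: 4 genes on chow and 7 on the HFS diet in the left panel, and 0 in the right panel.

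Diet was compared within each genotype, with the same libraries as above, so these estimates are not independent of the genotype effects. In Xbp1 fl/fl hepatocytes 0 of the 10 genes passed the threshold between the HFS diet and chow (0 at an unadjusted p under 0.05, and 0 by DESeq2), against 0.406% of all genes. The estimates ran from -0.10 for F10 to 0.38 for F5 (SE 0.19, adjusted p = 0.613), with a median of 0.11. Only F11 had all HFS libraries above all chow libraries (6.33% of all genes), with a log2 fold change of 0.13 (adjusted p = 0.912). In Xbp1 LKO hepatocytes 0 of the 10 passed, against 0.0601% of all genes, and the estimates ran from -0.20 for F11 to 0.49 for F9. The F9 estimate of 0.49 had a 95% interval from 0.20 to 0.77 (SE 0.13, unadjusted p = 0.00315, adjusted p = 0.215). It was the only 1 of the 10 at an unadjusted p under 0.05 (1674 of all 13303 genes), and the only 1 whose groups did not overlap upward (16.7% of all genes). By DESeq2, which called 208 of all genes, F9 passed (adjusted p = 0.0213). Markers of other cell types were also higher in the HFS-fed than in the chow-fed Xbp1 LKO libraries. The endothelial markers summed to 63.8 to 99.3 CPM against 25.3 and 31.8 CPM, the stellate markers to 29.1 to 61.2 against 8.96 and 9.44 CPM, and the macrophage markers to 50.4 to 89.7 against 21.2 and 30.8 CPM. DESeq2 called 9 of 10 endothelial, 5 of 9 stellate and 0 of 10 macrophage markers higher, and edgeR called 0 of each list (10, 6 and 5 at an unadjusted p under 0.05). Their part in the F9 difference was not tested.

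The interaction of genotype and diet asks whether the genotype effect differed between diets. It was called for 0 of the 10 genes and for 0% of all genes (0 of the 10 and 803 of all genes at an unadjusted p under 0.05, and 0 and 31 by DESeq2). The estimates ran from -0.33 for F11 (SE 0.26, adjusted p = 0.9) to 0.35 for F9, with a median of -0.08. The larger number of coagulation factors called on the HFS diet than on chow is therefore not shown to be a difference between diets.

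Further genes of the clotting system were taken as lists. Of 10 genes of the contact pathway and fibrin formation, all tested, 3 fell on chow and 3 on the HFS diet, with median log2 fold changes of -0.60 and -0.48 (6 and 5 by DESeq2). For this and the following lists, DESeq2 called 1115 of all genes on chow and 981 on the HFS diet. Hgfac, the activator of hepatocyte growth factor and a relative of factor XII, was at 298.4 ± 57.4 (SD, n = 3) and 76.3 and 148.1 CPM on chow, and 276.4 ± 11.6 (SD, n = 3) and 108.1 ± 13.2 CPM (SD, n = 3) on the HFS diet. Its log2 fold change was -1.41 (adjusted p = 0.0104) and -1.35 (adjusted p = 0.0066). Cpb2, the carboxypeptidase that slows fibrinolysis, fell on both diets (-1.11, adjusted p = 0.0119, and -0.98, adjusted p = 0.0123). F13b, the carrier subunit of factor XIII, passed on chow (-0.68, adjusted p = 0.0287) and not on the HFS diet (-0.50, adjusted p = 0.0632). Proz, the vitamin K-dependent protein Z, whose gene follows F10 after 4237 bp, passed on the HFS diet (-0.62, adjusted p = 0.045) and not on chow (-0.60, adjusted p = 0.0735). By edgeR no other gene of this list passed on either diet, among them Klkb1 and the kininogen genes Kng1 and Kng2 of the contact pathway. Of the 10 estimates, 9 were negative on each diet.

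Of 8 tested plasma inhibitors of coagulation and fibrinolysis (9 in the list), 2 fell on chow and 1 on the HFS diet (2 and 3 by DESeq2), with medians of -0.43 on both. Pzp, a broad protease inhibitor of the alpha-2-macroglobulin family, fell on chow (-0.91, adjusted p = 0.0171) and on the HFS diet (-0.70, adjusted p = 0.0332). Serpind1, heparin cofactor II, fell on chow (-0.71, adjusted p = 0.0363) and had -0.44 on the HFS diet (adjusted p = 0.143). Serpinf2, the plasmin inhibitor, had -0.45 and -0.66 (adjusted p = 0.272 and 0.0757), and Serping1, the C1 inhibitor, -2.43 and -1.44 with a wide spread between controls (103.8 to 710.3 CPM on chow, adjusted p = 0.177 and 0.376). None of the 3 fibrinogen chains, the substrate of thrombin, passed on either diet. Their estimates were large and their controls varied widely: Fga was at 5111 to 11810 CPM in the chow-fed controls, and had -1.09 on chow (adjusted p = 0.141) and -1.29 on the HFS diet (adjusted p = 0.0556). Fgg had -1.01 and -1.20 (adjusted p = 0.145 and 0.0586), and Fgb -0.61 and -0.95 (adjusted p = 0.446 and 0.179). At an unadjusted p under 0.05, 2 of the 3 chains passed on chow and 3 on the HFS diet, and DESeq2 called 2 and 3. At that unadjusted p, 2536 of 13303 genes passed on chow and 2302 on the HFS diet.

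Of 8 genes of the vitamin K cycle and of factor secretion, 2 fell on each diet and 0 rose, with medians of -0.38 and -0.18. DESeq2 called 4 lower on chow, and 3 lower and 1 higher on the HFS diet. By edgeR 2 estimates were positive on chow and 3 on the HFS diet. Of these the highest was that of Nqo1, a quinone reductase named after its values were seen (0.39 on chow, adjusted p = 0.49, and 0.96 on the HFS diet, adjusted p = 0.0578). Furin, the protease that removes the propeptides of clotting factors, was at 268.0 to 388.0 CPM in chow-fed controls against 196.7 and 211.7 CPM, and 352.4 to 425.8 against 169.7 to 217.4 CPM on the HFS diet, and it fell by 39.9% on chow (adjusted p = 0.0349) and fell by 50.1% on the HFS diet (adjusted p = 0.0048). Ggcx, the gamma-carboxylase that acts on all 6 vitamin K-dependent proteins above, fell on the HFS diet (-0.64, adjusted p = 0.0347) and had -0.55 on chow (adjusted p = 0.0933). Vkorc1l1, a relative of the vitamin K epoxide reductase, fell on chow (-0.49, adjusted p = 0.0173) and had -0.24 on the HFS diet (adjusted p = 0.185, and 0.022 with library totals). Lman1, the cargo receptor that carries factors V and VIII out of the endoplasmic reticulum, had -0.48 and -0.43 (adjusted p = 0.0528 and 0.0541).

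Coagulation genes that other cells make were near the limit of the data. They summed to 9.35 to 22.9 CPM over 11 genes, and 5 of 11 passed the filter. F8, Tfpi and F3 did not pass on either diet (adjusted p from 0.298 to 0.998). Of 14 tested transcription factors of hepatocytes (15 in the list), 0 passed on either diet, with medians of 0.01 and -0.05 (0 and 0 by DESeq2). At an unadjusted p under 0.05, 3 and 0 passed, against 2536 and 2302 of all 13303 genes. The transcription factors with the smallest p were Foxa1 (0.45 on chow, 0.08 on the HFS diet), Foxa2 (0.45 and -0.30), Cebpb (0.63 and -0.51) and Cebpd (0.58 and -0.68). Of the 48 tested genes of these 6 lists, 0 were called by edgeR for diet in Xbp1 fl/fl, for diet in Xbp1 LKO or for the interaction (4, 8 and 3 at an unadjusted p under 0.05, and 0, 2 and 0 by DESeq2). Of all 13303 genes, 1168, 1674 and 803 had an unadjusted edgeR p under 0.05. DESeq2 called 175, 208 and 31 of all genes.

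**Figure D4:**
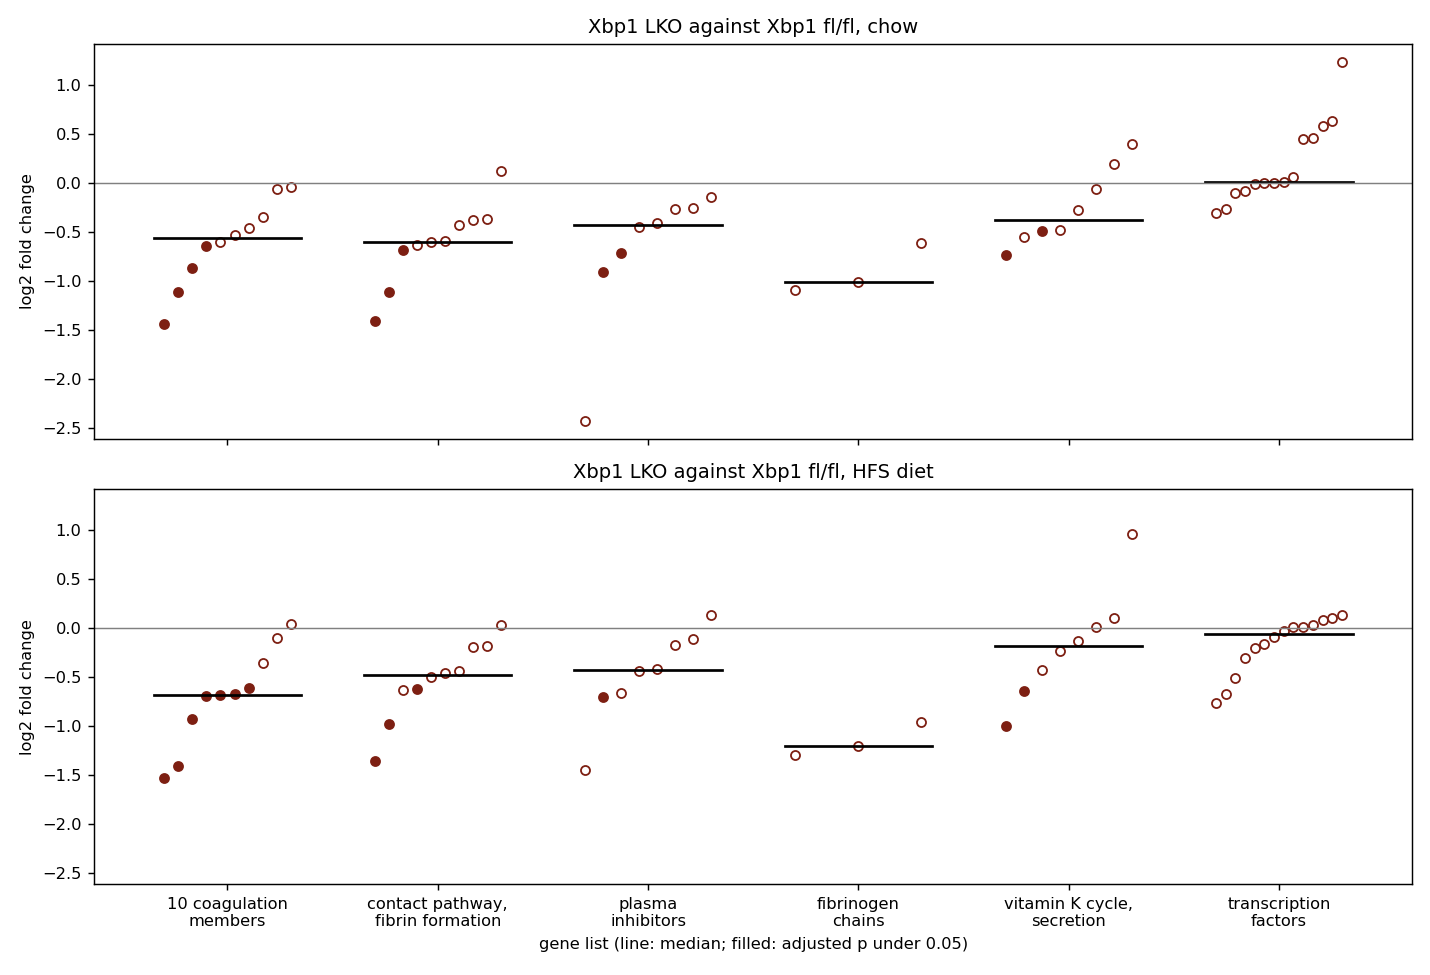
Log2 fold changes of Xbp1 LKO against Xbp1 fl/fl (y axes) on chow (top) and the HFS diet (bottom) for the tested genes of 6 lists (points; filled: adjusted p under 0.05; lines: list medians). The medians of the 10 coagulation factors are -0.56 and -0.68, and those of the transcription factors lie at 0.01 and -0.05.

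How firmly each call stood was read from 12 alternatives on chow and 13 on the HFS diet, namely DESeq2, other settings of the edgeR fit, only the groups compared, and each library left out in turn. Proc passed under 11 of 12 settings on chow and 13 of 13 on the HFS diet, F7 under 10 of 12 and 13 of 13, and F2 under 7 of 12 and 12 of 13. The calls of F12 held under 5 of 12 and 9 of 13, and those of F10, F11 and Plg on the HFS diet under 6, 5 and 5 of 13. On chow the calls rested on few libraries: without the second Xbp1 LKO library, which had the lowest Alb share, 0 of the 10 passed by edgeR (6 at an unadjusted p under 0.05), and without the first or the second Xbp1 fl/fl library F7 and Proc remained. On the HFS diet, F7 and Proc remained without the second Xbp1 LKO library and F2, F7 and Proc without the first or the third Xbp1 fl/fl library. The estimates of all called genes stayed negative under every setting.

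**Figure D5:**
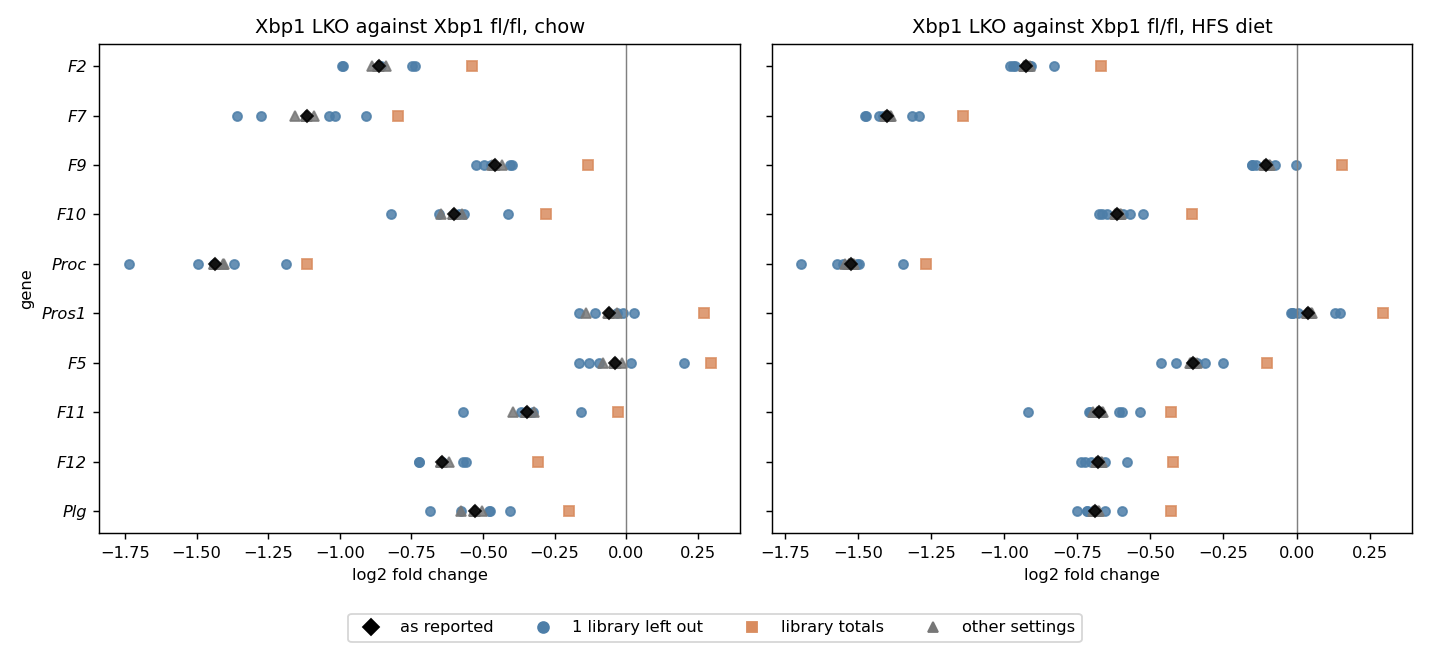
Log2 fold changes of Xbp1 LKO against Xbp1 fl/fl (x axes) for the 10 genes on chow (left) and the HFS diet (right) as reported (diamonds), with 1 library left out (circles), with library totals as scaling (squares) and under other settings (triangles). F2, F7, F10, F11, F12, Proc and Plg stay below 0 under each setting, whereas with library totals F5 and Pros1 on chow, and F9 and Pros1 on the HFS diet, lie above 0.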

How the data were processed

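Hepatocyte RNA of 11 libraries was sequenced by the authors, who deposited whole-number read counts per Ensembl gene, 1 table a library, neither normalized nor filtered. The paper's methods name kallisto and tximport, whereas the submitters' processing notes name cutadapt 1.13, STAR, HTSeq 0.6.1p1, DESeq2 and mm10. The counter that made the deposited counts, and its strand setting, are therefore not settled, and reads of overlapping genes on opposite strands may be mixed. The kit is TruSeq, stranded mRNA in the paper and total RNA in the labels. GENCODE M21 gave symbols and positions for 54165 of 54232 genes. Total counts were 19191032 to 23888401. Groups were taken from GEO's labels.

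The counts were normalized with edgeR 4.0.16 (R 4.3.3), which gave TMM factors and CPM. Genes were kept by filterByExpr (minimum count 10), and edgeR fitted a robust quasi-likelihood model of 4 groups to all libraries. The 5 contrasts were genotype on each diet, diet in each genotype and the interaction, with Benjamini-Hochberg adjustment over 13303 genes and a threshold of 0.05. Intervals are 95% intervals of the fit. Alternatives were DESeq2 1.42.0, RLE size factors, library totals, no filter, a minimum count of 50, only the groups compared, a replicate block, and each library left out in turn, where a group left with 1 library is assumed to vary like the others. The edgeR and DESeq2 fits were tested on simulated counts, with changes planted only in the genotype comparison on the HFS diet. The other contrasts were not tested in this way. Counting intervals are not given, since chi-square over its degrees of freedom was 28.0 to 101.6 between libraries of the same group.

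The members and lists were chosen with earlier results of these data known. Named genes are the members, Xbp1, Alb and, from each other list, up to 4 genes with the smallest unadjusted p in a genotype comparison, apart from an item that is not reported here. Protein sequences were not used here.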

Additional observations from a re-analysis of the deposited data

How the results depend on the processing

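Over the genotype comparisons, the estimates of the 10 genes were set against 250 alternative values, of which 193 kept direction and side of the threshold, 43 lost the call, 5 gained it and 9 turned sign. Of the 10 genes, 4 passed on chow as reported, 7 with DESeq2 (F9, F10 and Plg added), 2 with the replicate block (F7 and Proc), 1 with only the groups compared (Proc), and 0 to 4 with 1 library left out. On the HFS diet 7 passed as reported, 3 with library totals (F2, F7 and Proc), and 2 to 6 with 1 library left out. For diet in Xbp1 LKO hepatocytes DESeq2 called 1 (F9). Library totals raised the median of all genes by 0.33 on chow and 0.26 on the HFS diet, which turned F5 (0.29) and Pros1 (0.27) on chow and F9 (0.15), Vkorc1l1 (0.022), F8 (0.25) and F3 (0.070) on the HFS diet. Relative to that shift the 10 estimates moved by at most 0.02, with 10 and 9 negative. For HFS-fed mice F8 turned to 0.0073 without a filter, 0.011 with the stricter filter and 0.0012 with only the groups compared, and Tfpi to -0.016 with the replicate block. With 1 library left out, estimates that turned sign ran on chow from -0.16 to 0.20 for F5, -0.16 to 0.025 for Pros1, -1.46 to 0.0098 for Tfpi, -0.63 to 0.50 for F3 and -0.043 to 1.01 for Cebpd. Under HFS feeding they ran from -0.017 to 0.15 for Pros1, -0.25 to 0.15 for F8, -0.31 to 0.27 for Tfpi and -0.0028 to 0.16 for Foxa1, and for diet in Xbp1 LKO from -0.44 to 0.017 for F11. The cause was not tested.

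Over all genes, 618 were called on chow as reported (219 higher, 399 lower), 1115 with DESeq2, 3007 with library totals (2697 higher, 310 lower), 957 without a filter, 239 with only the groups compared and 72 to 783 with 1 library left out. On the HFS diet the 557 calls (257 higher, 300 lower) became 981 with DESeq2 and 1486 with library totals (1294 higher, 192 lower). They became 891 without a filter, 829 with only the groups compared and 184 to 526 with 1 library left out. For diet in Xbp1 fl/fl, 54 became 175 with DESeq2, 148 without a filter and 4 to 39 with 1 library left out. In the diet effect in Xbp1 LKO, 8 became 208 with DESeq2, 202 without a filter, 20 with the replicate block, 0 with only the groups compared and 2 to 37 with 1 library left out. For the interaction, 0 became 31 with DESeq2 and 28 without a filter.

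Same-numbered libraries are different animals, and their deviations from the group means correlated from -0.20 to 0.23 over 15 pairs of groups (mean -0.0087), so the numbers were not taken to pair them. The second chow-fed Xbp1 LKO library is numbered 2 by its title, used here, and 3 by the name of its count table, so its place in the pairs and in the block is uncertain. With the replicate block, 453 genes were called on chow and 430 on the HFS diet, and 5 of the 10 on the HFS diet. Every one of the 10 genes had at least 1077 counts in each library, and no fit at a lower depth was run.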
